A study of Mus musculus with 10 samples.

Results

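Promoter methylation of 2-month Tet2 knockout (Tet2KO) oocytes was compared with that of 2-month wild-type (WT) oocytes. Every nuclear promoter window listed for both genotypes at that age was used, which gave 40706 windows of the 49665 that the series lists for any of its groups. The cells were mouse MII oocytes, which are mature eggs arrested before fertilisation, from C57BL6/129 mice. The WT group held 4 libraries and the Tet2KO group 3, all from females of 2 months, and a further group of 3 WT libraries from 11 months is used below only for values set side by side. No treatment is named for any group, and the Tet2 allele is not described further in the labels, which give the genotype as Tet2KO and WT. The labels conflict on the input, since the series design gives 10 oocytes per sample and the extraction protocol a single oocyte. Each group was deposited as a single pool, with 1 value per window, so the spread between animals or libraries is not known and no difference below has a test or a replicate check. The method was bisulfite sequencing for low input. Bisulfite leaves methylated and hydroxymethylated cytosine unchanged, so a methylated call covers both forms.

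Tet2 belongs to the TET dioxygenases, which oxidise 5-methylcytosine to 5-hydroxymethylcytosine and further products and so open a route to loss of methylation. Oocyte methylation is laid down during follicle growth, mainly by Dnmt3a with its cofactor Dnmt3l, and it lies largely over transcribed gene bodies. CpG islands at active promoters stay mostly free of it, while islands inside genes transcribed in the oocyte, the maternal imprints among them, are methylated. Most promoters of the mature oocyte are therefore either nearly empty or nearly full of methylation.

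The level of a window was the percentage of its CpG calls that were methylated, and the difference was the level in Tet2KO minus that in WT, in percentage points, called points here. A window was counted as higher or lower when the levels lay 20 points or more apart. Windows were 2000 bp long and centred on an annotated transcript start. They held a median of 130 calls in WT and 79 in Tet2KO. With 0 methylated calls at the median depth, a level of up to 2.31% in WT and 3.80% in Tet2KO is allowed. Intervals are 95% Wilson intervals for levels and 95% Newcombe intervals for differences, and they cover counting error only, since calls from PCR copies or from the same read are not independent.

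The sequences below show promoters of leading windows, the first 3 in each direction that had a reference promoter. Rdh13, Rps29 and Bace1, with larger differences, had none. A pair of imprinted promoters whose windows were nearly full of methylation in both genotypes is set beside them. Each runs from 250 bases before to 50 bases after the gene's start, 5′ to 3′ on the gene's strand, from RefSeq on GRCm38.p6, with every CpG in capitals. The levels given here are those of the 2000 bp windows around the sequences, by calls. Chad, Them7 and Shisa7 were at 2.68%, 10.3% and 6.19% in WT and at 96.6%, 98.1% and 94% in Tet2KO. Hspa1b, Dnm3 and Tnp2 were at 90.1%, 87.1% and 84.2% in WT and at 0%, 1.39% and 1.52% in Tet2KO. By the authors' mean over covered positions, Hspa1b and Tnp2 were at 73.5% and 55.3% in WT. Mest was at 96.1% in WT and 93.8% in Tet2KO, and Gnas at 97.5% and 97.8%.
Chad (chr11:94564797-94565096, plus strand): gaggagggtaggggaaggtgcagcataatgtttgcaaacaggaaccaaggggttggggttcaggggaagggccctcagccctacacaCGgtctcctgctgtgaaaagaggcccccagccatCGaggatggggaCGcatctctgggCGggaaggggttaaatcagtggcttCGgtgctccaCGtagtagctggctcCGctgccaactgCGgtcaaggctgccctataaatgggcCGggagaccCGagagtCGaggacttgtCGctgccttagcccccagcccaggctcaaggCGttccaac
Them7 (chr2:105224092-105224391, plus strand): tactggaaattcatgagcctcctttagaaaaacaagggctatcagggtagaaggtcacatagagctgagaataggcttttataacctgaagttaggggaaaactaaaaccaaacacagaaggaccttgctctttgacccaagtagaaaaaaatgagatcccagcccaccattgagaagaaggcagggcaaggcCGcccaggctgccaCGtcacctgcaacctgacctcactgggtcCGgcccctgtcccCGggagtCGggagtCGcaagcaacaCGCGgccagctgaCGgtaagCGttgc
Shisa7 (chr7:4844647-4844946, minus strand): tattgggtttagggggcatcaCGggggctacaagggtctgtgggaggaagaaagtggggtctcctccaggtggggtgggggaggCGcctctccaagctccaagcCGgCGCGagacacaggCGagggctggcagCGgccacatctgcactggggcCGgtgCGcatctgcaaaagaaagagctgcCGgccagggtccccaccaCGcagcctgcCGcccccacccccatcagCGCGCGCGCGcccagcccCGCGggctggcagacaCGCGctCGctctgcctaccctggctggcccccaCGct
Hspa1b (chr17:34959189-34959488, minus strand): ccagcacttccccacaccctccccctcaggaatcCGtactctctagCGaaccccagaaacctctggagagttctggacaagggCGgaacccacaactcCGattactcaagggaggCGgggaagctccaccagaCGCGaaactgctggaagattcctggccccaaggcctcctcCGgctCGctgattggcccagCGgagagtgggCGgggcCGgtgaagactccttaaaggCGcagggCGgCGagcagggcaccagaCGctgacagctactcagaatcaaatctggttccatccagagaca
Dnm3 (chr1:162477985-162478284, minus strand): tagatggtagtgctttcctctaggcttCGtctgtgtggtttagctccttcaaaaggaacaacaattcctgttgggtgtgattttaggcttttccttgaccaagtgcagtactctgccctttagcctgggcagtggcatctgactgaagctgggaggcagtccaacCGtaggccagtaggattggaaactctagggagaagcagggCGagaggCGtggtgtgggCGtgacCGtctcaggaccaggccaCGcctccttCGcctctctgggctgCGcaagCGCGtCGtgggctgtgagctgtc
Tnp2 (chr16:10788606-10788905, minus strand): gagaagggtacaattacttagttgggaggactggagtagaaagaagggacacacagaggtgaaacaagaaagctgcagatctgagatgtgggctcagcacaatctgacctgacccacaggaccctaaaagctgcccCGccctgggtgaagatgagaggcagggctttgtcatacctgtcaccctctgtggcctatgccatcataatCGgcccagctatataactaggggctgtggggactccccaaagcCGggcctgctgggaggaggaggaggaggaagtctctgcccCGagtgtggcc
Mest (chr6:30737800-30738099, plus strand): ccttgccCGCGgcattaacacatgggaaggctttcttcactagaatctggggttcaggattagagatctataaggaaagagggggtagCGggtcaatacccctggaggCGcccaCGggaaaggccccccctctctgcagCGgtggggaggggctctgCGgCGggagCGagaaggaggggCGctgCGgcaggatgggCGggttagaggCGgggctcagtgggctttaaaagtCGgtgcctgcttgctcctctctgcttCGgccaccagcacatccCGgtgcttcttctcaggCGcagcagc
Gnas (chr2:174327518-174327817, plus strand): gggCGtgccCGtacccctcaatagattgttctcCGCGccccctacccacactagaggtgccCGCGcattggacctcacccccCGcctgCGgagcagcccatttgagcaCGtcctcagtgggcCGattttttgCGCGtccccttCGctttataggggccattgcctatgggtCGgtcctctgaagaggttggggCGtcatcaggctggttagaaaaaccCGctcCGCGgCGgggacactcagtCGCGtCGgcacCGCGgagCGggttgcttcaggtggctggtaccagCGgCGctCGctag

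The promoters of the first 6 held 13, 10, 23, 16, 12 and 4 CpGs in the order shown, and those of Mest and Gnas held 17 and 28. The CpG numbers of the higher and of the lower ones overlapped. The letters TATAAA stood in the Chad, Them7 and Gnas promoters on at least 1 strand, and the letters GGGCGG, a GC box, in all of these but Dnm3 and Gnas.

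Across the genome the 2 genotypes had nearly the same promoter methylation, and a small share of windows stood far apart in both directions. Of 40706 windows, 1352 were higher in Tet2KO (3.32%) and 1321 were lower (3.25%). The windows apart in either direction made up 6.57% of all. Mean levels were 17.4% in WT and 16.9% in Tet2KO, and the mean difference was -0.549 points. The levels of 27988 windows (68.8%) lay within 5 points of each other. Differences of 50 points or more were seen at 208 higher and 160 lower windows. Among the higher windows 1131 had a counting interval above 0, and among the lower ones 1164 had one below 0. By the deposited fraction, the mean over covered CpG positions that the authors gave, 1261 windows were higher (3.1%) and 1312 lower (3.22%), which made 6.32% in all. Of the windows higher by calls 985 (72.9%) were also higher by 20 points by the fraction, and of those lower by calls 966 (73.1%) were also lower. Just inside and outside the threshold, 101 windows were higher by 20 to under 21 points and 91 by 19 to under 20, while 121 and 106 were lower by the same margins.

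**Figure D1:**
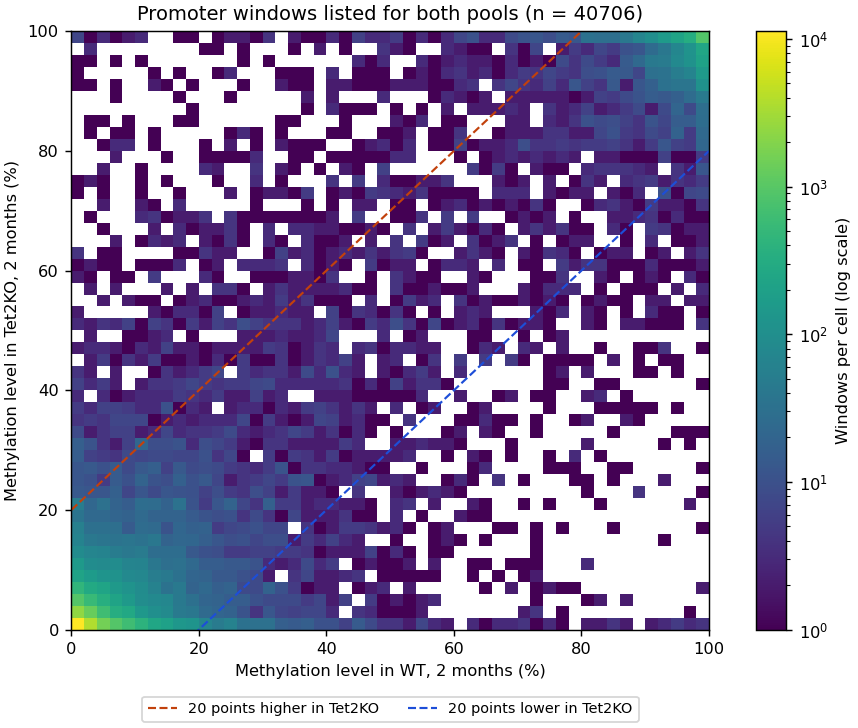
Methylation level of each promoter window in Tet2KO (vertical axis, %) against WT (horizontal axis, %), both at 2 months, with the number of windows per cell as colour on a log scale and dashed lines at 20 points. Most of the 40706 windows sit in the empty and full corners, with 1352 above the upper line and 1321 below the lower one.

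The depth of a window went with its direction. Windows with at least 50 calls in both pools numbered 24255, and of these 245 were higher (1.01%) and 513 lower (2.12%). Where the shallower pool had 10 to 19 calls, 8.78% of windows were higher and 5.61% lower. With 100 calls or more in both, 0.381% were higher and 1.71% lower. The same order was seen by covered CpG positions, taken as the larger of both pools' numbers. These classes differed in depth too, so they are no reading apart from it. Median calls were 22 in WT and 16 in Tet2KO at 5 to 14 positions, and 377 and 237 at 80 or more. With 5 to 14 positions 9.12% were higher and 6.04% lower, and with 80 or more positions 0.438% were higher and 1.57% lower. The part of depth in the split between higher and lower windows was not tested.

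Most nearly empty and nearly full promoters were in the same state in both genotypes. Of the windows far apart, 680 higher and 1021 lower ones lay between 20% and 80% in WT. A window under 20% in WT could not be lower by 20 points. Of 23917 windows under 5% in WT, 87.0% were under 5% in Tet2KO too, 330 lay between 20% and 80%, and 22 reached 80% or more. Of 4560 windows at 80% or more in WT, 4170 (91.4%) were at 80% or more in Tet2KO and 28 were under 5%. Windows between 20% and 80% in WT numbered 3620, and 48.2% of them lay in that range in Tet2KO, while 619 were under 5% and 517 at 80% or more in Tet2KO. In the low range 5023 windows were at 5% to under 20% in WT and under 5% in Tet2KO, and 2757 the other way round. Classes by WT level use the level that is subtracted in the difference, so counting error alone can move windows between them. Its part in these shifts was not tested. Windows under 5% made up 58.8% of all in WT and 65.0% in Tet2KO.

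The Tet2 gene itself was measured first among the genes of the methylation machinery. Its window on chromosome 3 (133543369 to 133545368) was at 14% in WT (214 calls) and 2.87% in Tet2KO (349 calls), a difference of -11.2 points (interval -16.6 to -6.51). An overlapping window, from 133544097 to 133546096, was at 7.84% in WT (204 calls) and 2.59% in Tet2KO (347 calls). Promoter methylation does not show whether the Tet2 gene is intact, so it cannot serve as a check of the labels.

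Of 27 measured genes that write, read or remove methylation, 0 were higher and 0 lower by 20 points, and the median difference was -0.797 points. Over all gene symbols 2.43% were higher and 2.76% lower, so 0 of 27 is near those shares. By the deposited fraction 1 of the 27 was lower. Tet3, the TET enzyme known to act in the oocyte and zygote, had a window inside the gene at 100% in WT (28 calls) and 99.2% in Tet2KO (125 calls). Dnmt1, the maintenance methyltransferase, uses an oocyte start and a somatic start. The window at chromosome 9, 20951624 to 20953623, was at 97.0% in WT (101 calls) and 98.2% in Tet2KO (109 calls), and that at 20958889 to 20960888 was at 2.38% of 42 calls and 0% of 47. Dnmt3b, a de novo enzyme, was nearly full in both genotypes, at 98.3% in WT (60 calls) and 100% in Tet2KO (33 calls). Dnmt3l, the cofactor that oocytes need for imprints, had a window at its edge at 0% of 97 calls and 1.56% of 64 calls, and a window inside the gene at 100% of 33 calls and 100% of 13 calls. Thus several windows of 1 gene were far apart from each other and alike between genotypes.

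Dnmt3a, the main de novo enzyme of the oocyte, had a window at chromosome 12, 3806030 to 3808029, at 1.13% in WT (794 calls) and 0.595% in Tet2KO (504 calls). Its window at 3890728 to 3892727, inside the gene, was at 20.9% in WT (139 calls) and 4.49% in Tet2KO (89 calls). By the deposited fraction that difference was -5.43 points instead of -16.4. Uhrf1, which brings Dnmt1 to replicated DNA, was at 1.62% of 433 calls and 0% of 279. Dppa3, which shields the maternal genome from demethylation, was at 5.13% of 39 calls and 0% of 45. Tdg, the glycosylase that removes oxidised methylcytosine, was at 0% in WT (300 calls) and 3.19% in Tet2KO (94 calls). No window was named for Tet1.

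The strongest single differences were between a nearly empty and a nearly full promoter. Among named windows with at least 30 calls in both pools, the highest difference was at Rdh13, a retinol dehydrogenase. It was at 3.44% in WT (320 calls) and 97.8% in Tet2KO (92 calls), a difference of 94.4 points (interval 88.4 to 96.6). This window, on chromosome 7 from 4470286 to 4472285, lies inside the neighbouring gene Eps8l1. Chad, a protein of cartilage matrix, was at 2.68% in WT (112 calls) and 96.6% in Tet2KO (59 calls). Its window lies inside Acsf2, an acyl-CoA synthetase gene, whose own start on chromosome 11 (94600872 to 94602871) was at 17.7% in WT (113 calls) and 100% in Tet2KO (44 calls). Both starts in this stretch were therefore low in WT and full in Tet2KO, and they did not overlap.

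Them7, of the thioesterase superfamily, was at 10.3% in WT (39 calls) and 98.1% in Tet2KO (52 calls). Shisa7, an auxiliary subunit of inhibitory receptors, was at 6.19% of 307 calls and 94% of 50, and Ccdc73 at 3.66% of 82 calls and 90.9% of 66. Cntn1, an adhesion protein of axons, was at 24.7% of 77 calls and 98.1% of 53. Emb, a membrane adhesion protein, was at 8.18% of 220 calls and 81.9% of 72. Rgs9, a regulator of G protein signalling in photoreceptors, was at 8.81% of 159 calls and 82.1% of 78, and the start of Urad, an enzyme of urate breakdown, was at 5.05% of 99 calls and 77.8% of 63. Pparg, the nuclear receptor of adipocytes, was at 12.4% in WT (306 calls) and 83.9% in Tet2KO (93 calls), a difference of 71.5 points (interval 61.7 to 78.4).

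Rpl3l, a muscle form of a ribosomal protein, was high at separate starts. The window at chromosome 17, 24726820 to 24728819, was at 0% in WT (118 calls) and 53.3% in Tet2KO (30 calls). The window at 24731685 to 24733684, inside the gene, was at 14% of 43 calls and 90.5% of 42. Of 716 genes with 2 or more windows that did not overlap, 3 were higher at every window and 1 was lower at every window. Another 1 went opposite ways, and 92 had windows on both sides of the threshold. With 1 window per symbol, 2.43% of all symbols were higher and 2.76% lower. Whether windows of 1 gene agree more than unrelated windows was not tested. The other genes higher throughout were Plb1, a phospholipase, and Myt1l, a neuronal zinc finger factor. Plb1 was at 22.5% of 80 calls and 57.9% of 38 and at 50% of 18 calls and 86.7% of 15. The latter difference was 21.9 points by the deposited fraction. Myt1l was at 47.2% of 53 calls and 72.4% of 29 and at 68.9% of 45 calls and 93.8% of 16. The interval of the latter difference, -0.0713 to 40.3 points, reached 0. Pdzk1, a scaffold of membrane transporters, was the gene lower throughout. It was at 22.0% of 41 calls and 1.89% of 53 and at 79.4% of 34 calls and 56.7% of 30. The interval of the latter difference, -43.0 to 0.00041 points, reached 0.

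Of the 12 lowest windows, 3 belonged to sperm chromatin genes, which are described with the sperm list. Rps29, of the small ribosomal subunit, was at 98.9% in WT (12817 calls) and 0.917% in Tet2KO (109 calls). Its WT window held 144 calls per covered CpG position, against 1.70 in Tet2KO, and its deposited fraction in WT was 43.6%. Hspa1b, an inducible heat shock protein, was at 90.1% in WT (916 calls) and 0% in Tet2KO (98 calls), with 9.96 and 2.00 calls per position. Gpx1, which detoxifies hydrogen peroxide, was at 76.1% of 1138 calls and 7.34% of 218, and by the deposited fraction its difference was -44.9 instead of -68.8 points. These deep WT windows stood beside others with no such depth. Bace1, the beta-secretase, was at 94.1% in WT (51 calls) and 0.943% in Tet2KO (106 calls), and Dnm3, a dynamin of membrane fission, at 87.1% of 31 calls and 1.39% of 72. Car8, a relative of carbonic anhydrases, was at 86.5% of 89 calls and 5% of 60, and Prex2, an activator of Rac, at 76.0% of 100 calls and 2.30% of 87. Pakap was at 71.9% of 32 calls and 1.72% of 58, and Sap18b at 73.5% of 223 calls and 3.97% of 126.

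**Figure D2:**
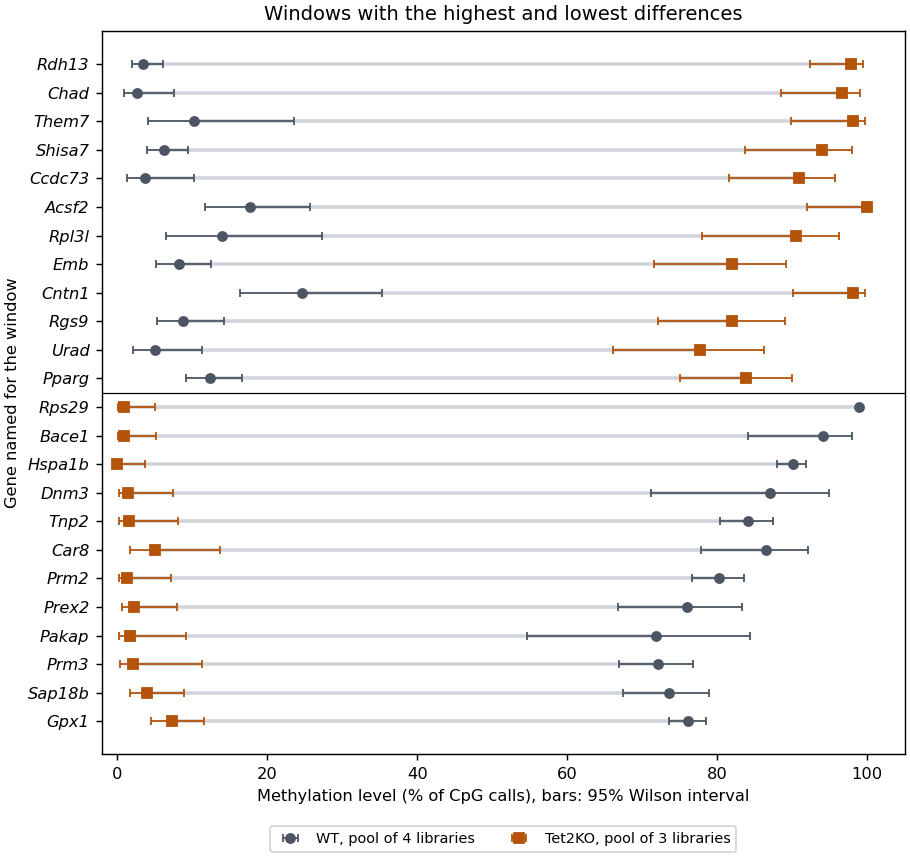
Methylation level (%, horizontal axis) of the 12 windows with the highest and the 12 with the lowest difference by the naming rule, one gene per row. Circles are the WT pool and squares the Tet2KO pool, bars are 95% Wilson intervals, and the rows were chosen by the size of the difference, from Rdh13 (3.44% and 97.8%) at the top of the higher windows to Rps29 (98.9% and 0.917%) at the top of the lower ones.

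The relative depth of the pools was unequal at some windows of either direction. For each window the WT share of all calls was divided by the Tet2KO share. This share ratio was over 3 at 2.33% of all windows, at 7.10% of the higher windows and at 5.30% of the lower ones. Among windows 50 points or more apart 9.13% of the higher ones had a ratio over 3, as did 24.4% of the lower. It was over 10 at 39 windows, of which 17 were lower and 5 higher. Those 17 had a median of 3478 calls in WT and 43 in Tet2KO, 96.6 and 1.70 calls per position, and levels of 95.6% and 0.917%. Their mean difference was -87.2 points by calls and -48.7 points by the deposited fraction. Without windows whose share of calls differed over 3 times in either direction, 1196 windows were higher and 1187 lower. The part of depth in the single differences was not tested.

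**Figure D3:**
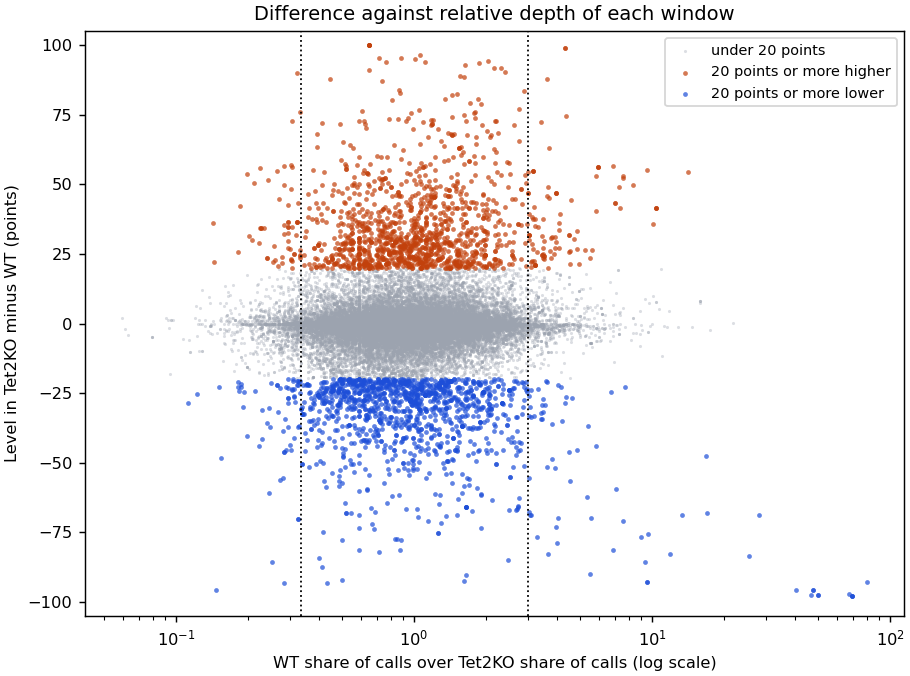
Difference in level (Tet2KO minus WT, points, vertical axis) against the WT share of calls over the Tet2KO share (horizontal axis, log scale), one dot per window, with dotted lines at 3 times in either direction. Most higher and lower windows lie between the lines, and the dots farthest to the right, past a ratio of 30, all lie at the bottom of the plot.

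Gene lists were read with 1 window per symbol, chosen for the most calls in the shallower pool. The lists were chosen with earlier results of these data known. Their shares beside those of all symbols are therefore description and no independent support. Over all 18593 gene symbols, 452 were higher by 20 points (2.43%), 513 were lower (2.76%), and the median difference was -0.343 points. Of 31 measured sperm and spermatid genes, 1 was higher and 12 were lower (38.7%), with a median difference of -7.96 points. The 5 measured transition protein and protamine genes, whose products replace histones in the spermatid, were all lower. Tnp2, a transition protein, was at 84.2% in WT (411 calls) and 1.52% in Tet2KO (66 calls), and Tnp1 at 65.6% of 154 calls and 0% of 33. Prm1 was at 70.2% of 336 calls and 10.7% of 28, Prm2 at 80.3% of 508 calls and 1.33% of 75, and Prm3 at 72.2% of 316 calls and 2.17% of 46. Prm1, Prm2, Prm3 and Tnp2 are neighbours on chromosome 16, so they are not independent of each other. By the deposited fraction the differences at Tnp2, Prm2 and Prm3 were -53.5, -48.6 and -42.8 points, against -82.7, -79.0 and -70.0 by calls, and that at Tnp1 was -40.6 against -65.6.

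A further 7 of the measured sperm genes were lower, 5 of which are given here. Spesp1, of the equatorial segment of sperm, was at 95.8% in WT (24 calls) and 0% in Tet2KO (96 calls). Pgk2, a glycolytic enzyme of sperm, was at 68.2% of 22 calls and 6.25% of 16, and Odf1, of the sperm tail, at 36.2% of 130 calls and 4.55% of 22. Spaca1, of the acrosomal membrane, was at 30.8% of 143 calls and 0% of 40, and Catsper2, of the sperm calcium channel, at 20.8% of 279 calls and 0% of 118. Gapdhs, the sperm form of a glycolytic enzyme, was the member that was higher, at 25.8% in WT (31 calls) and 80% in Tet2KO (30 calls), although by the deposited fraction only by 17.7 points. Of the 12 lower members, 6 had a share ratio over 3, and 5 were left without windows whose share of calls differed over 3 times in either direction. Without windows of over 10 calls per covered position in either pool 7 were left. With at least 50 calls in both pools 14 members remained, of which 4 were lower and 0 higher.

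Heat shock and immediate-early genes, which answer stress and growth signals, had lower members as well. Of 32 heat shock and chaperone genes, 8 were lower (25%), 2 were higher and the median difference was -3.74 points. Hspa1a, next to Hspa1b, was at 73.9% in WT (907 calls) and 5.26% in Tet2KO (19 calls), and Hspa1l, which shares that stretch of chromosome 17, at 71.9% of 750 calls and 3.85% of 26, which by the deposited fraction was a difference of -44.9 points. Hspa5, the chaperone of the endoplasmic reticulum, was at 33.3% of 799 calls and 5.74% of 331. Hsp90aa1, a cytosolic chaperone, was at 21.9% of 393 calls and 1.27% of 711, so it was lower with more calls in Tet2KO than in WT, but by -13 points in the deposited fraction. The higher members were small heat shock proteins: Hspb3 was at 13% in WT (77 calls) and 58.9% in Tet2KO (56 calls), and Hspb6 at 6.06% of 99 calls and 37.7% of 114. Hspb6 was higher by 18.3 points by the deposited fraction. Without windows whose share of calls differed over 3 times, 4 members were lower.

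Of 23 immediate-early genes, 5 were lower (21.7%), 0 were higher and the median difference was -8.12 points. All 23 had at least 50 calls in both pools. Jun, a subunit of AP-1, was at 37.3% in WT (951 calls) and 0.338% in Tet2KO (296 calls), and Junb at 64.2% of 628 calls and 26.6% of 199. Egr1, a zinc finger factor, was at 29.6% of 678 calls and 1.78% of 394. Ier5 was at 29% of 930 calls and 1.86% of 215, and Ccn1, a matrix signalling protein, at 25.4% of 512 calls and 1.97% of 152, with a difference by the deposited fraction of -19.3 points. Without windows whose share of calls differed over 3 times the count was 5 as well. Among these 5, Junb had the highest level in both pools.

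Histone and ribosomal protein genes had smaller shares of lower members. Of 66 core and linker histone genes, 7 were lower (10.6%) and 2 higher. H2ac19, an H2A gene, was at 41.0% in WT (349 calls) and 0% in Tet2KO (102 calls), and H3f3b, which encodes the replacement histone H3.3, at 37.8% of 465 calls and 1.09% of 183. H2bc6 was among the higher ones, at 43.9% in WT (66 calls) and 97.1% in Tet2KO (35 calls). Of 78 cytosolic ribosomal protein genes, 7 were lower (8.97%) and 1, Rpl3l, was higher. Rpl41 was at 50.8% of 197 calls and 4.17% of 120, Rpl8 at 38.0% of 460 calls and 4.13% of 121, and Rps9 at 32.3% of 130 calls and 6.74% of 193. Copies of histone and ribosomal genes elsewhere in the genome can share reads, so single members are uncertain. Proteasome subunits, another set of genes used in every cell, had 0 of 47 members higher and 0 lower. Over all symbols 2.43% were higher and 2.76% lower, so 0 of 47 is near those shares.

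Single genes of other lists were lower too. Pink1, a kinase of mitochondrial quality control, was at 36.4% in WT (368 calls) and 0.877% in Tet2KO (114 calls). Insr, the receptor for insulin, was at 94.9% of 98 calls and 43.4% of 113. Parp2, which senses broken DNA, was at 25.2% of 329 calls and 0% of 94, with a difference by the deposited fraction of -19.5 points. Atp5d, a subunit of ATP synthase, was at 39.1% of 294 calls and 2.72% of 147. Slc3a2, the heavy chain of amino acid transporters, was at 49.5% of 196 calls and 4.63% of 108. Pou5f1, the pluripotency factor Oct4, was at 30% of 130 calls and 0% of 25. Each of these lists had at most 10 lower members, and shares near the 2.76% of all symbols: 1.89% of DNA repair, 3.12% of solute carrier, 4.17% of pluripotency and 5% of mitochondrial genes.

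**Figure D4:**
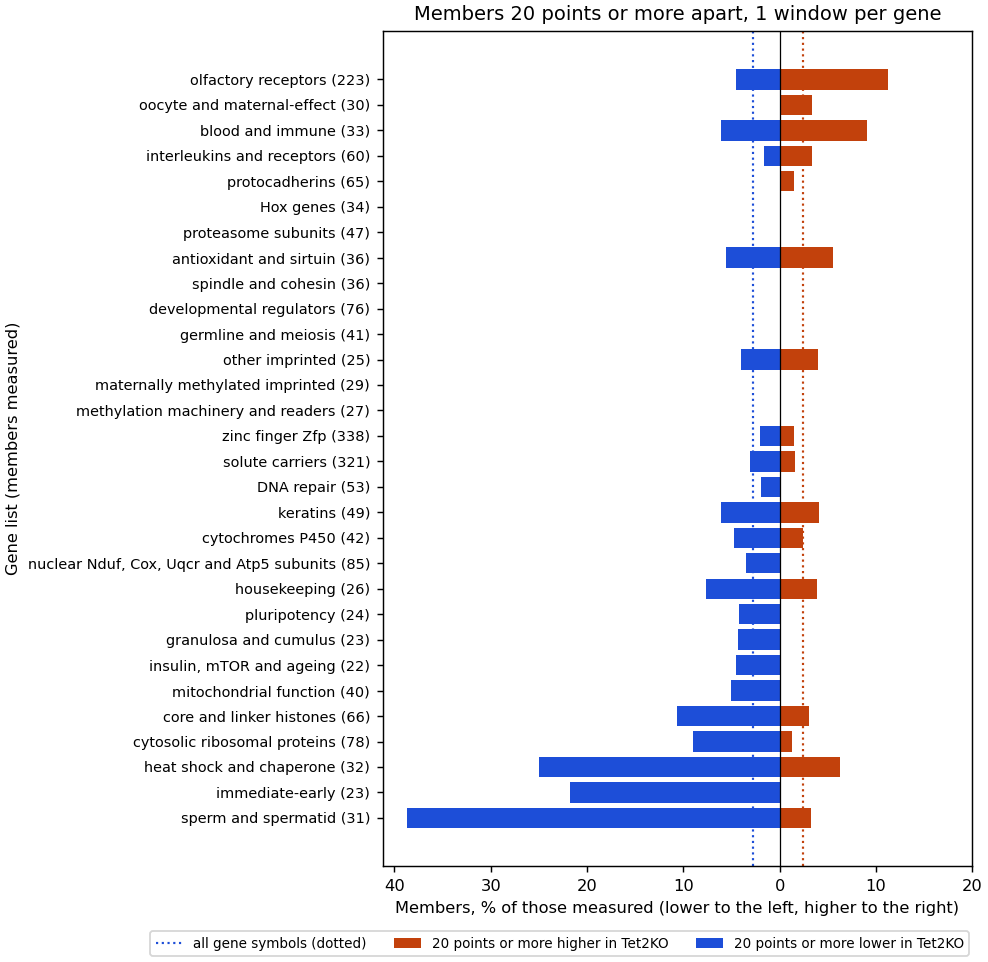
Percentage of measured members 20 points or more higher in Tet2KO (to the right) or lower (to the left) for each gene list with at least 20 members, the number measured in brackets, and dotted lines at the shares of all gene symbols (2.43% and 2.76%). Sperm (38.7% lower), heat shock (25%) and immediate-early genes (21.7%) reach farthest to the left, and olfactory receptors (11.2% higher) farthest to the right. The lists were chosen with earlier results of these data known.

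Olfactory receptor genes, expressed in single neurons of the nose, were the list with the largest share of higher members. Of 223 measured, 25 were higher (11.2%) and 10 lower (4.48%), but the median difference was 0. Olfr420 was at 2.15% in WT (93 calls) and 60% in Tet2KO (25 calls), and Olfr750 at 4.10% of 122 calls and 37.1% of 62. Olfr90 was on the lower side, at 59.7% of 77 calls and 23.8% of 21. The family was shallow, with a median of 33 calls in WT and 19 in Tet2KO, and with at least 50 calls in both pools 1 of 22 members was higher and 0 were lower. Other lists had members in both directions. Zinc finger Zfp genes had 5 of 338 members higher (1.48%) and 7 lower (2.07%), against 2.43% and 2.76% of all symbols. Zfp113 was at 25% in WT (132 calls) and 92.6% in Tet2KO (54 calls), and Zfp128 at 77.9% of 104 calls and 26.1% of 46. Of 49 keratins, 2 were higher (4.08%) and 3 lower (6.12%). Krt78 was at 5.06% of 79 calls and 44.6% of 56, and Krt10, of the skin, at 60.5% of 38 calls and 95.1% of 41. Krt7 was lower, at 58.6% of 111 calls and 28.8% of 80, but by -9.42 points in the deposited fraction. Interleukins and their receptors had 2 of 60 members higher and 1 lower. Il27ra, a cytokine receptor, was the lower one, at 66.7% of 111 calls and 24.0% of 104.

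Promoters of imprinted genes, some of which carry the textbook marks of an oocyte, were mostly alike in both genotypes. Of 29 measured genes of the maternally methylated group, 0 were higher and 0 lower by 20 points. Over all symbols the shares were 2.43% and 2.76%, so 0 of 29 is near those shares. In both pools 12 members were at 80% or more and 12 under 5%, so part of the windows did not hold the mark. Peg3, a zinc finger gene expressed from the paternal allele, was at 96.2% in WT (157 calls) and 95.2% in Tet2KO (84 calls). Kcnq1ot1, a long antisense RNA, was at 99.4% of 168 calls and 100% of 85, and Airn, the antisense RNA of Igf2r, at 100% of 44 calls and 100% of 64. Snrpn was at 94.3% of 70 calls and 97.8% of 46. Mcts2 stood lowest among them relative to WT, at 92.9% of 42 calls and 75% of 56, with an interval of the difference from -31.4 to -2.67 points, and a difference of -9.63 points by the deposited fraction. Of 25 other imprinted genes, 0 were at 80% or more in both pools, 1 was higher and 1 lower. H19, whose control region is marked in sperm, was at 4.21% of 95 calls and 2.50% of 40. Meg3, of the other sperm-marked cluster, was at 23.4% of 107 calls and 2.22% of 45, a difference of -21.1 points by calls and -35.8 by the deposited fraction. Dhcr7, of cholesterol synthesis, was the higher one, at 8.13% of 123 calls and 28.8% of 52, a difference of 20.7 points by calls and 9.42 by the deposited fraction.

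Most promoters of developmental regulators were nearly empty in both genotypes. Of 76 developmental regulators, 68 were under 5% in both pools, and 0 were higher or lower by 20 points. All 76 were under 20% in both pools, so none could be lower by 20 points. Over all symbols 2.43% were higher and 2.76% lower. The 34 Hox genes had 28 members under 5% in both, and Hoxa3 differed most, at 9.49% in WT (158 calls) and 0% in Tet2KO (108 calls). Of 41 germline and meiosis genes, 0 were 20 points apart by calls, which is near the shares of all symbols. By the deposited fraction 1 of them was lower. In both pools 27 were under 5%, against 10708 of the 18593 symbols. Tex12, of the synaptonemal complex, was at 1.49% in WT (202 calls) and 15.5% in Tet2KO (84 calls). Mael, which silences transposons, was at 27.5% of 91 calls and 14.2% of 127. Of 30 oocyte and maternal-effect genes, 1 was higher: Pabpn1l, which helps to clear maternal messages, at 9.57% of 115 calls and 35.5% of 31. Gdf9, an oocyte growth factor, was at 15.8% of 292 calls and 0% of 224. Its window is shared with Uqcrq, a respiratory chain gene that starts beside it.

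Markers of other cells that could accompany oocytes were read as well. Of 23 granulosa and cumulus genes 0 were higher and 1 lower, which was Ptx3, a matrix protein of the cumulus, at 20.4% in WT (157 calls) and 0% in Tet2KO (71 calls). Lhcgr, the luteinising hormone receptor, was at 10.5% of 143 calls and 28.1% of 57. Of 33 blood and immune genes 3 were higher (9.09%) and 2 lower (6.06%), against 2.43% and 2.76% of all symbols. Cd4, the coreceptor of helper T cells, was at 2.50% in WT (40 calls) and 85.2% in Tet2KO (27 calls), and Foxp3, of regulatory T cells, at 41.5% of 41 calls and 88.4% of 43. Foxp3 was higher by 20.3 points by the deposited fraction instead of 46.9. The lower members were Klf1, a factor of red cell development, at 37.5% of 64 calls and 16.0% of 81, and Itga2b, the platelet integrin, at 90.6% of 32 calls and 69.6% of 23. Their differences by the deposited fraction were -14.4 and -16.3 points. Methylation at such genes is no measure of their expression, and whether other cells took part in the differences was not tested.

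The promoters that differed had fewer CpGs than the rest. The windows were matched to 16464 promoter sequences, and a promoter was counted once in each set of windows it matched. The median number of CpGs in the 300 bases was 17 over all, 7 for promoters of higher windows and 10 for those of lower ones. Promoters of windows at 20% to 80% in both pools and under 20 points apart had a median of 7 as well. Those of windows under 5% in both had 20, and those of windows at 80% or more in both had 6. More than 15 CpGs were found in 54.3% of all matched promoters, in 23.0% of higher and in 31.8% of lower ones, and in 13% of those at 80% or more in both pools. Over all 32851 RefSeq promoters the median was 7.

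Short motifs were counted on both strands in the same 300 bases. GGGCGG, the GC box of Sp factors, stood in 55.6% of matched promoters, in 35.3% of higher and 41.8% of lower ones, and in 35.7% of all RefSeq promoters. CCAAT, the box bound by NF-Y, stood in 37.3% of matched promoters, 35.8% of higher, 45.2% of lower and 37.4% of all. TATAAA stood in 8.56%, 13%, 13.4% and 13.6% in that order. TGACTCA, the AP-1 site, stood in 4.15%, 7.38%, 2.77% and 5.2%. It also stood in 7.80% of promoters at 20% to 80% in both pools, so the share in higher ones was near that of promoters with a like level. The CCAAT share of lower promoters lay above the 39.0% of that comparison group. These are counts of letters in a window and not of bound sites.

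Windows inside a protein-coding gene, over 2000 bp from its ends, were more frequent among those that differed. They made up 22.0% of all windows, 35.3% of higher and 25.3% of lower ones. Among windows at 80% or more in both pools 60.8% lay inside a gene, and among those under 5% in both 14.7%. The higher windows thus lay between these groups, near the 31.4% of windows at 20% to 80% in both.

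Within 50000 bp of a higher window, among windows that did not overlap it, 9.67% were higher and 3.92% lower. Beside lower windows, 4.45% were higher and 6.62% lower, and beside windows under 20 points apart 3.73% and 3.39%. Chad with Acsf2 and the protamine cluster are examples of each direction.

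Chromosomes differed in how their windows were split. On the X chromosome 70 of 1258 windows were higher (5.56%) and 34 lower (2.70%), and on chromosome 13 the shares were 5.14% and 2.92%. Chromosome 19 had the reverse split, with 17 of 1089 windows higher (1.56%) and 47 lower (4.32%). The X windows were shallow, at a median of 91 calls in WT and 57.5 in Tet2KO, against 163 and 104 on chromosome 19. With at least 50 calls in both pools the X shares were 1.34% higher and 1.49% lower, and those of chromosome 19 were 0.272% and 3.95%. Over all windows of that depth the shares were 1.01% and 2.12%, and no difference between chromosomes was tested. With 1 window per group of overlapping windows, 28 windows of chromosome 19 were lower. By the deposited fraction 3.90% of X windows were higher and 2.70% lower. No window on the Y chromosome was listed for either pool.

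**Figure D5:**
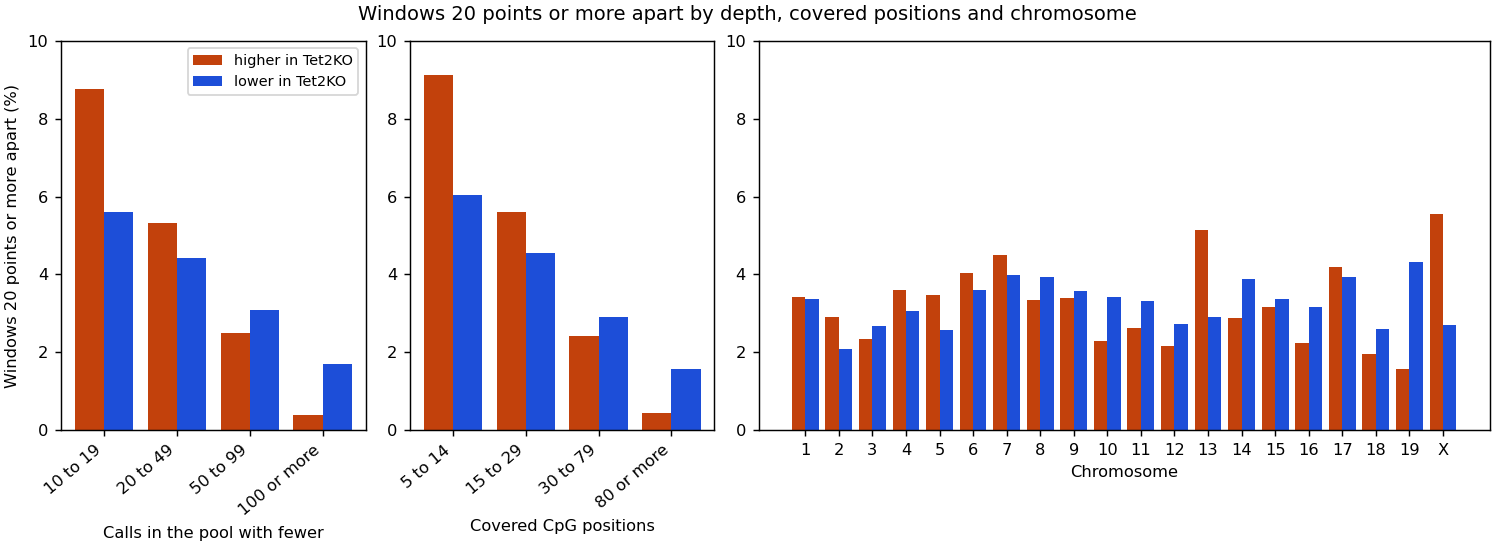
Percentage of windows 20 points or more higher (first bar) or lower (second bar) in Tet2KO by the number of calls in the shallower pool, by covered CpG positions and by chromosome. Both shares fall with depth, from 8.78% and 5.61% at 10 to 19 calls to 0.381% and 1.71% at 100 or more, and X and chromosome 19 have opposite splits.

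Windows without an entry at 11 months added little and were shallow. They numbered 169, at a median of 18 calls in WT and 13 in Tet2KO, of which 20 were higher and 14 lower. Mlip, a protein that binds lamins, was at 0% in WT (11 calls) and 100% in Tet2KO (10 calls). Serpinb9c, a protease inhibitor, was at 100% of 16 calls and 50% of 10, and Scgb2b3, a secretoglobin, at 38.9% of 18 calls and 5.26% of 19. With at least 20 calls in both pools 1 of these windows was higher and 1 lower.

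The 11-month WT pool can be set beside these values, though both comparisons share the 2-month WT pool and a low or high value there moves both. At 11 months Rdh13 was at 97.0% of 267 calls, Acsf2 at 95.6% of 181 and Emb at 76.2% of 189. Among the 12 leading higher windows Rpl3l had the lowest level at 11 months, 29.3% of 99 calls. Among the 12 leading lower windows Car8 had the highest, 63.1% of 274 calls, and Rps29 was at 1.32% of 453, Prex2 at 0.861% of 581 and Dnm3 at 4.70% of 383. Junb was at 67.1% of 328 calls at 11 months, near its 64.2% in 2-month WT. Rpl8 was at 23.5% of 383 calls, between its 2-month levels of 38.0% and 4.13%. No test of the difference between the comparisons was possible with 1 value per pool.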

How the data were processed

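The labels name mouse MII oocytes and a low-input bisulfite method. Trimmomatic, Bismark (version field 12.5) and the genome build mm10 are named, without roles, per the submitters' processing notes. Further settings were not stated in the sources at hand. The authors deposited 1 table per group, which pools the 4 WT and 3 Tet2KO libraries of 2 months. The deposited counts are methylated CpG calls in each window, and the table also lists the coverage deposited with them, which is all CpG calls, and the number of covered positions. The deposited fraction is a mean over covered positions. Unmethylated calls were not read. Listed windows had at least 10 calls and 5 positions. The last line of the WT table is cut off on X, and 17 Tet2KO windows past it were not analysed here. Of all nuclear windows, 1023 were listed for Tet2KO only and 5485 for WT only.

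Windows were joined on position and transcript, without the mitochondrion and Y. Python 3.11.15, pandas 2.3.3, numpy 2.4.6, scipy 1.17.1 and matplotlib 3.10.9 were used. Calls and intervals were tested on simulated data with independent calls. That simulation cannot show how the intervals hold for PCR copies or calls of the same read. A window took the symbol of a RefSeq gene (GRCm38.p6, the assembly of mm10) starting within 200 bp of its centre. For genes with no entry in the strand table an end counted as well. In all, 27680 windows (68.0%) got 18593 symbols. Members and gene lists were chosen with earlier results of these data known. Named genes are the 12 highest and 12 lowest windows with at least 30 calls in both pools and 20 points apart by both measures, up to 4 members per list with the largest difference and at least 20 calls, genes of the methylation machinery, genes with all separate windows apart, and up to 4 higher and lower windows not listed at 11 months. Predicted genes, miRNAs, olfactory and vomeronasal receptors and unnamed clones were left out of the first group. Other list members were named after their values were seen. Without libraries apart, no test was possible.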

Additional observations from a re-analysis of the deposited data

Results flagged for a closer look

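Mitochondrial windows were outside the comparison, and 2 of 37 were 20 points or more higher in Tet2KO, above the level in the WT pool. The window centred on the start of ATP8, a subunit of mitochondrial ATP synthase, was at 42.1% in WT (10066 calls) and 62.7% in Tet2KO (7229 calls), a difference of 20.6 points. The window at ATP6, another subunit, was at 41.0% of 10962 calls and 62.1% of 7731, a difference of 21.1 points. These windows overlap and share most of their calls. Windows beside them were higher too, by 19.5, 18.9, 19.2, 18.3 and 12.2 points at starts 6700, 7607, 8391, 8459 and 8808. This stretch had few calls for the mitochondrion, and the window starting at 7607 held 7832 in WT and 4612 in Tet2KO. The windows starting at 6013 and 9167 held 62494 and 38422 calls in WT and were higher by 1.04 and 2.21 points. The part of depth in these differences was not tested. Of all 37 mitochondrial windows, 14 were higher and 23 lower in Tet2KO, with a median difference of -2.22 points, and 0 were lower by 20 points. The pooled mitochondrial level was 27.4% in WT and 24.8% in Tet2KO.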

How the results depend on the processing

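No paired analysis was possible because the tables hold 1 pooled value per group, although the labels number the libraries alike, and for the same reason no library could be left out. With the deposited fraction, with intervals that exclude 0, without windows over 10 calls per position, with 1 window per group of overlapping windows, with windows also listed at 11 months, with centring on the median and, chosen after seeing the data, without windows of unequal share, the counts of higher and lower windows stayed within 1.5 times of 1352 and 1321. With at least 20 calls in both pools 763 windows were higher, and with at least 50 calls 245 were higher and 513 lower. At 30 points 704 were higher and 596 lower, and at 10 points 2952 and 3665. The mean difference of -0.549 points was -0.708 by the deposited fraction, -0.942 and -1.39 with at least 20 and 50 calls, -0.490 without windows over 10 calls per position, -0.277 with 1 window per overlap group and -0.313 after centring.

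The sperm list had 4 lower members with at least 50 calls, 7 without windows over 10 calls per position and 5 without windows of unequal share, against 12. Lower heat shock members numbered 3 at 30 points and 4 without windows of unequal share, against 8, and lower immediate-early members 2 at 30 points and 8 at 10 points, against 5. Higher olfactory receptors numbered 6 and 1 with at least 20 and 50 calls, 11 at 30 points and 57 at 10 points, against 25. Among windows not listed at 11 months, 1 was higher and 1 lower with at least 20 calls and 0 and 0 with at least 50. At 30 points 9 of them were lower, and at 10 points 31 were higher and 29 lower.

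By the deposited fraction 985 of the 1352 higher windows and 966 of the 1321 lower ones were past 20 points in the same direction. Intervals hold no spread between oocytes, animals or libraries, a pool can be led by 1 library, and the deeper pool is also the WT pool, so depth and genotype cannot be told apart.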
